A study of Rattus norvegicus with 46 samples.

Results

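The colony-stimulating factors are secreted proteins that drive the growth, survival and activation of myeloid cells, and 8 genes encode the rat ligands and receptor chains examined here. They were taken by gene name from the 30045 genes of the count tables, and each name was found once in all 4 tables. The ligands are Csf1 (macrophage colony-stimulating factor), Il34 (a second ligand of the same receptor), Csf2 (granulocyte-macrophage colony-stimulating factor, GM-CSF) and Csf3 (granulocyte colony-stimulating factor). The receptors are Csf1r, Csf2ra, Csf2rb and Csf3r.

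Csf1 and Il34 bind Csf1r, a receptor tyrosine kinase on monocytes and macrophages. Csf2 binds the chain encoded by Csf2ra, and the chain encoded by Csf2rb, which the interleukin-3 and interleukin-5 receptors share, carries its signal to JAK2 and STAT5. In the lung, Csf2 from the alveolar epithelium is needed for alveolar macrophages to mature and to clear surfactant. Csf3 binds Csf3r, found mainly on neutrophils and their precursors.

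Healthy male Fischer 344 rats weighing 250 to 300 g, called aged in the study's title, breathed crystalline silica dust (Min-U-Sil 5, 15 mg/m3) or filtered air in whole-body chambers for 6 hours a day on 5 days. The labels give no age. RNA was sequenced from lung and from globin-depleted whole blood taken 1 day or 6 months later. There were 6 lungs from silica-exposed rats and 6 from air-exposed rats at 1 day, 6 and 4 lungs at 6 months, and 6 blood samples in each of the 4 groups. The labels name no other treatment or genotype, and nothing in them states that a group's samples came from separate animals, so the p-values measure only the spread between these samples. In whole tissue, a change in the number of cells of a type and a change in RNA per cell cannot be told apart.

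Depth was 13369307 to 24369646 estimated counts per lung library and 10631870 to 17519950 per blood library. In 5 pairs of lung samples the counts differed by little more than sampling noise (7.76% to 9.66% of genes with an unadjusted chi-square p under 0.05, against 21.2% to 93.9% in the other pairs), so their mean stands for 1 sample. This left 6 silica and 4 air lungs at 1 day, and 5 silica and 2 air lungs at 6 months. The averaged pairs are written here as 02-07 and 04-08 (air, 1 day), 30-31 (silica, 6 months), and 19-24 and 20-25 (air, 6 months). Markers of the labelled tissues were present, with alveolar type 2 cell markers summing to 14133 to 54812 CPM (counts per 1000000 of a library, after TMM scaling) in lung libraries and erythroid and platelet markers to 16047 to 102819 CPM in blood libraries. TMM scaling factors ranged from 0.936 to 1.03 in lung and from 0.475 to 1.69 in blood. Both air lungs of 6 months stood apart in their markers of natural killer (NK) cells and large granular lymphocytes, which summed to 378 to 1201 CPM in silica lungs and 3550 and 3907 CPM in air lungs at that time. At 1 day the same sum was 241 to 869 CPM in silica lungs and 368 to 861 CPM in air lungs.

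The promoters of 4 members are shown, those with an entry in a RefSeq table of the GRCr8 assembly, which covers 250 bases before to 50 bases after each gene's start. Csf2, Csf2ra and Csf3r were higher in silica lungs at 1 day, and Csf1r was higher at 6 months only. Csf1 and Csf2rb, also higher at 1 day, have no entry. The 4 windows are shown as a description, and no link of their letters to these changes was tested. They lie at chr10:38889624-38889923 on the minus strand (Csf2), chr14:118068-118367 on the minus strand (Csf2ra), chr5:143582970-143583269 on the plus strand (Csf3r) and chr18:56834129-56834428 on the plus strand (Csf1r). Each runs 5′ to 3′ on the gene's own strand, and capitals mark matches, on either strand, to a core motif of NF-kB (GGGNNNNNCC) or of PU.1 (GAGGAA), transcription factors of inflammatory and myeloid genes. No match to AP-1 (TGANTCA) or C/EBP (TTGCNNAA) was in these 4 windows. Of the 33469 promoters in the table, 47.3% held the NF-kB core, 27.6% the PU.1 core, 7.33% the AP-1 core and 10.6% the C/EBP core. A match describes letters and not binding.
Csf2: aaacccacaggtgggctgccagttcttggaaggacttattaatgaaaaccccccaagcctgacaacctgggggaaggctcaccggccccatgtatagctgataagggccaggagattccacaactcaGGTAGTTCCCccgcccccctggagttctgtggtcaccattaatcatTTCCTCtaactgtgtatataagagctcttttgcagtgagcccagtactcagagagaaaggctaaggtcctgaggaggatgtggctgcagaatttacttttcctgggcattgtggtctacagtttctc
Csf2ra: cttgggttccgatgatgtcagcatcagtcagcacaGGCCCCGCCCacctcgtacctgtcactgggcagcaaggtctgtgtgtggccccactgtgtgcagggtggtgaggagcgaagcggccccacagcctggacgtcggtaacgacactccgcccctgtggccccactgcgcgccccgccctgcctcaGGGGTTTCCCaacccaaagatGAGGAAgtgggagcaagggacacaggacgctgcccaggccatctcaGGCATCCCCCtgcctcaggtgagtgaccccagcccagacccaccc
Csf3r: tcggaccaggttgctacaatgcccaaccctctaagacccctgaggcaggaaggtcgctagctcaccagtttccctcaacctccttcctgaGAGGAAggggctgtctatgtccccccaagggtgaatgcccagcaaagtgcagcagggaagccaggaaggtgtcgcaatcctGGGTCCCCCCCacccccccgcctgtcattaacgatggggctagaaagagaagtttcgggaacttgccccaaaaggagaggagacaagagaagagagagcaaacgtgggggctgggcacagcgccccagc
Csf1r: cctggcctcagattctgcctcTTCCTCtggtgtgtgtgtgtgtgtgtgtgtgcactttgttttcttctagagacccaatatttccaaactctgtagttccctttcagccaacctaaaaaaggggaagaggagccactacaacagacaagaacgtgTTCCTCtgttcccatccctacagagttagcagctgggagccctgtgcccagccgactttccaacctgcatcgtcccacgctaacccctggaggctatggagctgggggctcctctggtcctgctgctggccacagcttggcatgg
The Csf2 window held 1 NF-kB match and 1 PU.1 match. The Csf2ra window held 4 NF-kB matches, 2 of them 1 stretch read on both strands, and 1 PU.1 match. The Csf3r window held 3 overlapping NF-kB matches and 1 PU.1 match. The Csf1r window held 2 PU.1 matches and no NF-kB match.

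At 1 day after silica, 5 of the 7 members that could be tested rose in the lung and none fell. These were the ligands Csf1 and Csf2 and the receptors Csf2ra, Csf2rb and Csf3r, while Il34 and Csf1r did not pass the test. Across all 15724 genes tested at this time, 7.61% rose and 4.07% fell (edgeR's quasi-likelihood test, Benjamini-Hochberg adjusted p under 0.05). Csf3 had too few counts to be tested in any comparison.

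Among the ligands, Csf1 read 109.9 (lowest), 119.6 (median) and 137 CPM (highest) in the 6 silica lungs, against 87.6, 102, 82.7 and 79.7 CPM in the 4 air lungs. Every silica lung was above every air lung. The fitted fold was 1.399 (log2 0.48 ± 0.08, SE; adjusted p = 0.00229, edgeR). Csf2 read 1.87 (lowest), 2.63 (median) and 3.10 CPM (highest) in silica lungs, from 36 to 53 counts a library, against 1.407, 1.4004, 0.590 and 1.52 CPM in air lungs, from 8 to 25 counts. The groups did not overlap, and the fold was 2.10 (log2 1.07 ± 0.25, SE; adjusted p = 0.0155, edgeR). Alveolar type 2 cell markers summed to 27356 to 30950 CPM in silica lungs and 22040 to 24516 CPM in air lungs, where 6 of 9 tested rose and none fell, and their part was not tested. Il34 overlapped between the groups, with 22.997 to 27.03 CPM in silica lungs and 22.8 to 29.1 CPM in air lungs. Its difference was -0.04 on the log2 scale (95% interval -0.21 to 0.14; adjusted p = 0.831, edgeR).

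Csf3 was at the edge of detection in the lung. It had 1, 2, 3, 2, 3 and 1 counts in the 6 silica lungs of 1 day, and 1 count in 1 of the 4 air lungs. At 6 months it had 1, 0, 4, 5 and 0 counts in silica lungs and 0 in both air lungs. These are counts after pairs were averaged and rounded. Before that, the air samples 08 (1 day) and 25 (6 months) had 1 count each, which became 0. The silica samples 30 and 31 had 0 and 2 counts, which became 1. A count of 0 allows up to 3 counts, which is 0.124 to 0.221 CPM in a lung library (counting error only), and 2 lung libraries, both silica lungs of 6 months, had more than 3 counts. Every silica lung of 1 day thus held at least 1 count, but nearly all values lay at or under the limit, and no fold is given.

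Among the receptors at 1 day, Csf2rb differed most plainly. It read 31.999 (lowest), 34.04 (median) and 40.9 CPM (highest) in silica lungs, against 19.7, 16.2, 15.6 and 20.2 CPM in air lungs. All silica lungs were above all air lungs, with a fold of 1.98 (log2 0.98 ± 0.09, SE; adjusted p = 2.07e-05, edgeR). Csf2ra, its partner chain, read 42.2 (lowest), 50.6 (median) and 57.0 CPM (highest) in silica lungs, against 42.3, 36.3, 40.4 and 37.8 CPM in air lungs. The lowest silica lung lay just under the highest air lung, and the fold was 1.30 (log2 0.38 ± 0.08, SE; adjusted p = 0.00521, edgeR). With all 4 lung groups in a single fit the log2 difference was also 0.38, and the call was lost (adjusted p = 0.261).

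Csf3r read 51.8 (lowest), 54.8 (median) and 90.6 CPM (highest) in silica lungs, against 43.1, 29.4, 31.2 and 41.2 CPM in air lungs. Its groups did not overlap and the fold was 1.72 (log2 0.78 ± 0.19, SE; adjusted p = 0.0302, edgeR). This call was lost without any one of the air libraries 04-08, 05 and 06 or the silica library 15 (adjusted p = 0.0784, 0.0945, 0.0586 and 0.0600). Neutrophil markers, from which Csf3r was left out, summed to 1154 to 1572 CPM in silica lungs and 364 to 436 CPM in air lungs, and of 14 tested, 6 rose and 1 fell. Ltf was at 0 in the air lungs. Csf1r read 257 to 281 CPM in silica lungs and 265 to 296 CPM in air lungs, with a difference of -0.03 on the log2 scale (95% interval -0.13 to 0.07; adjusted p = 0.763, edgeR). Macrophage markers, without Csf1r, summed to 678 to 760 CPM in silica lungs and 521 to 563 CPM in air lungs, where 7 of 10 tested rose and none fell. Monocyte markers summed to 475 to 616 CPM in silica lungs and 436 to 478 CPM in air lungs, where 4 of 8 rose and none fell. The part of these cells in the members' values was not tested.

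**Figure D1:**
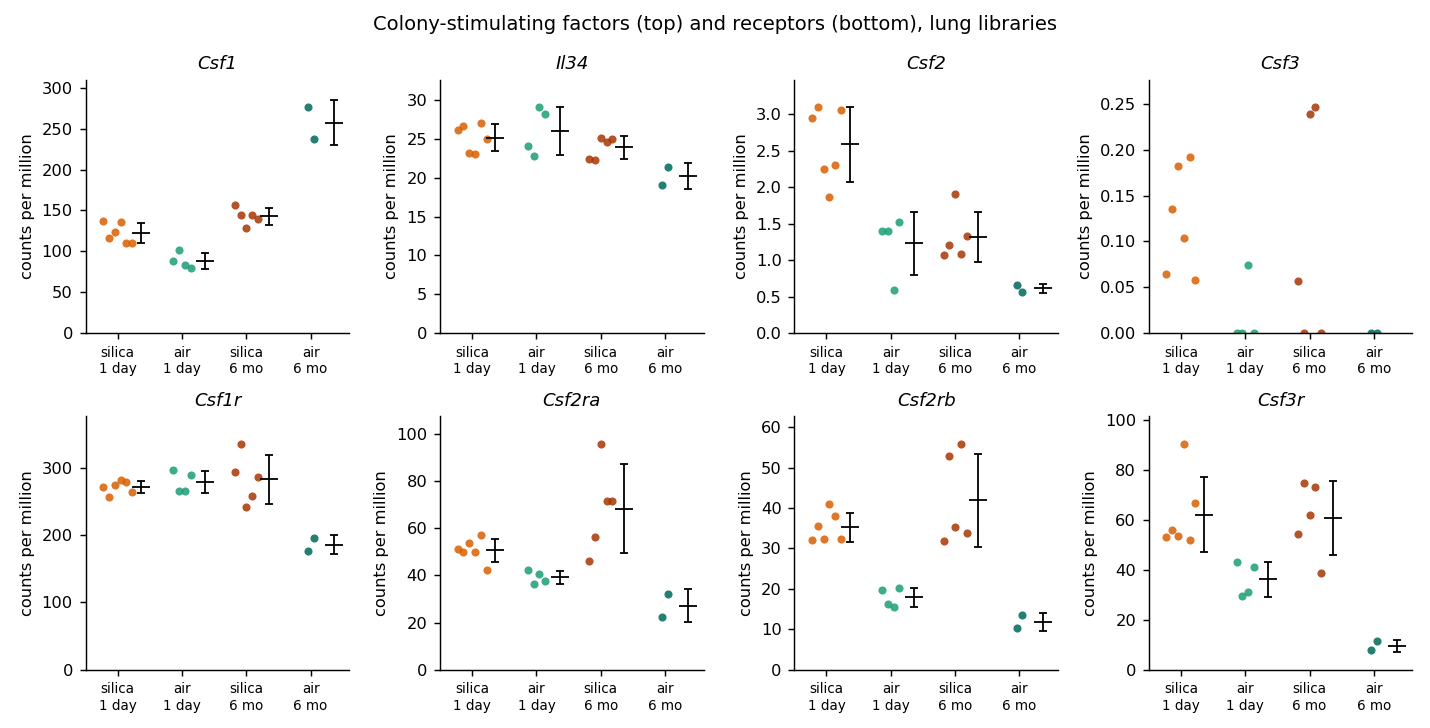
CPM (linear axes from 0) of each ligand (top row) and receptor (bottom row) in the 17 lung libraries, 1 point per library. Bars give mean ± SD per group (none for Csf3, which had at most 5 counts). Csf2rb separates silica from air at both times, Csf1 is highest in the 2 air lungs of 6 months at 238 and 277 CPM, and Csf3r is lowest there at 7.83 and 11.4 CPM.

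At 6 months after silica, 4 of the 7 tested members were higher in the lung and 1 was lower. Against air lungs of the same time, all 4 receptors were higher and Csf1 was lower, and the other ligands tested, Csf2 and Il34, did not pass. Within silica lungs, none of these 5 members passed between 6 months and 1 day, as given below. For silica against air, rose and fell stand for higher and lower than in air of the same tissue and time. Of the 16267 genes tested, 9.51% rose and 10.1% fell. The air group held only 2 libraries, and leaving out 19-24 ended the call of each of the 5 members (adjusted p = 0.0669 to 0.231, edgeR) with folds in the same direction, and 56 genes in all were then called. Every comparison below that uses 6-month lungs shares these 2 air libraries. With 5 silica and 2 air libraries, groups without overlap are easily met by chance, and their share over all genes was not counted.

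Csf3r had the largest fold of the members. It read 54.3, 75.0, 62.0, 73.2 and 38.9 CPM in silica lungs, against 7.83 and 11.4 CPM in air lungs. Every silica lung was above both air lungs, and the fold was 6.45 (log2 2.69 ± 0.31, SE; adjusted p = 0.00503, edgeR). Neutrophil markers summed to 1162 to 3286 CPM in silica lungs and 206 and 258 CPM in air lungs, where 9 of 14 tested rose and none fell, and their part was not tested.

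Csf2rb read 31.7, 52.8, 35.4, 56.0 and 33.9 CPM in silica lungs, against 10.3 and 13.5 CPM in air lungs. The fold was 3.61 (log2 1.85 ± 0.29, SE; adjusted p = 0.00869, edgeR). Csf2ra read 46.3, 56.4, 95.9, 71.6 and 71.7 CPM in silica lungs, against 22.3 and 32.1 CPM in air lungs. The fold was 2.57 (log2 1.36 ± 0.30, SE; adjusted p = 0.0197, edgeR). Neither chain overlapped between the groups. Without 20-25 the Csf2ra call was lost (adjusted p = 0.0610) and the Csf2rb call stood (adjusted p = 0.0420).

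Csf1r read 293, 336, 241, 258 and 286 CPM in silica lungs, against 176 and 196 CPM in air lungs. The groups did not overlap and the fold was 1.56 (log2 0.64 ± 0.16, SE; adjusted p = 0.0273, edgeR), a call also lost without 20-25, 34 or 35 (adjusted p = 0.0893, 0.05002 and 0.0663). Macrophage markers summed to 594 to 975 CPM in silica lungs and 421 and 576 CPM in air lungs, where 2 of 10 tested rose and none fell. Monocyte markers summed to 640 to 846 CPM in silica lungs and 496 and 529 CPM in air lungs, where 5 of 8 rose and none fell. The part of these cells in the values of the 4 receptors was not tested.

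Csf1 went the other way. It read 157, 144, 128, 145 and 139 CPM in silica lungs, against 277 and 238 CPM in air lungs. Both air lungs were above every silica lung, and Csf1 was 0.568 times as high in silica lungs (log2 -0.82 ± 0.12, SE; adjusted p = 0.00713, edgeR). Csf2 read 1.07, 1.20, 1.91, 1.09 and 1.33 CPM in silica lungs, from 19 to 32 counts, against 0.657 and 0.566 CPM in air lungs, from 11 and 12 counts. Its groups did not overlap and the estimated fold of 2.20 was close to that of 1 day, but it missed the threshold (log2 1.13, 95% interval 0.33 to 1.94; adjusted p = 0.0555, edgeR). Csf2 passed without silica library 33 (adjusted p = 0.0449), with all 4 lung groups in a single fit (0.0216) and with each library as a separate sample (0.00743). Alveolar type 2 cell markers summed to 25069 to 54812 CPM in silica lungs and 14133 and 17131 CPM in air lungs, where 7 of 9 rose and none fell, and their part was not tested. Il34 read 22.2 to 25.2 CPM in silica lungs and 19.1 and 21.4 CPM in air lungs (log2 0.27, 95% interval from just under 0 to 0.55; adjusted p = 0.152, edgeR), and it passed with each library as a separate sample (adjusted p = 0.0249).

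**Figure D2:**
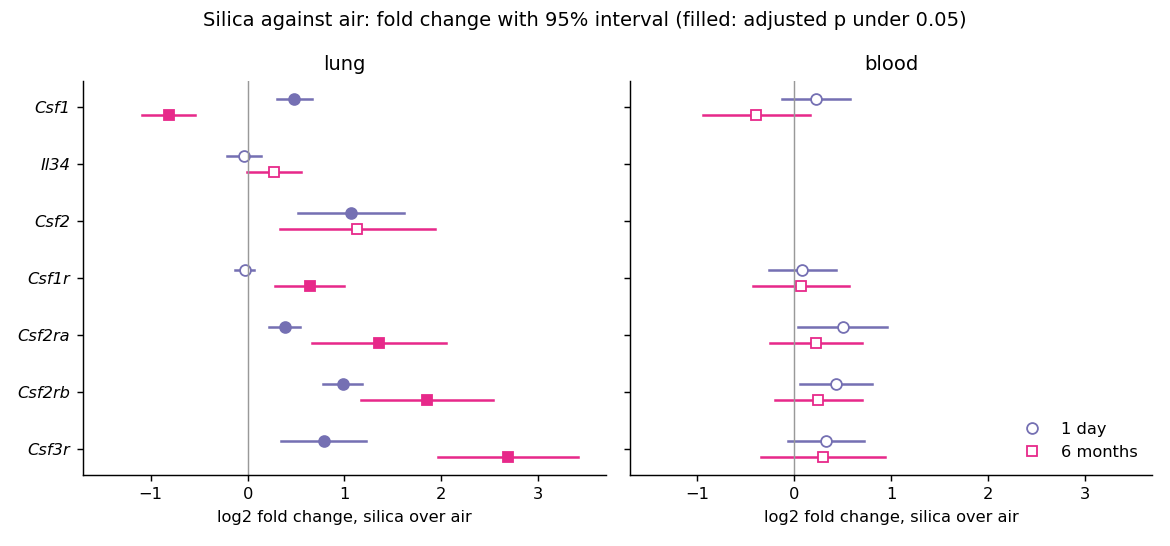
Log2 fold change of silica over air with its 95% interval, for the members tested in lung (left) and blood (right), at 1 day (circles) and 6 months (squares). Filled symbols passed an adjusted p of 0.05. In lung, Csf1 lies at 0.48 at 1 day and at -0.82 at 6 months, and no member passed in blood.

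The change in silica's effect between the times was tested in a single fit of the 4 lung groups. It differed for 5 of 7 members: Csf1r, Csf2ra, Csf2rb and Csf3r had a larger difference from air at 6 months, and Csf1 changed from higher to lower. Of 16567 genes, 12.1% changed upwards and 14.6% downwards. The effect of Csf1 at 6 months minus that at 1 day was -1.33 ± 0.14 on the log2 scale (SE; adjusted p = 6.86e-05, edgeR), and that of Csf3r was 1.88 ± 0.34 (adjusted p = 0.00136). The other values were 0.64 for Csf1r (adjusted p = 0.00259), 0.95 for Csf2ra (0.0135) and 0.84 for Csf2rb (0.0260). Without the air library 19-24, the calls of Csf2ra and Csf2rb were lost (adjusted p = 0.148 and 0.195), and that of Csf2rb was also lost without 02-07 or 06 (0.0517 and 0.0526). Csf2 (0.04, 95% interval -0.77 to 0.85) and Il34 (0.28, 95% interval from just over 0 to 0.57) did not pass, with adjusted p = 0.959 and 0.126.

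The 2 exposures were then compared over time, a comparison chosen after the levels were seen. Time after exposure, the rats' age and the separate count tables of the 2 times cannot be told apart in it. In silica lungs, Csf2 alone of 7 members differed between 6 months and 1 day, where 4.43% of genes were higher at 6 months and 5.21% lower. Csf2 was lower at 6 months (log2 -0.98, adjusted p = 0.0165, edgeR). Csf2ra, higher at 6 months by 0.42 on the log2 scale, did not pass (adjusted p = 0.0708), but passed without silica library 30-31 or 32 (0.0112 and 0.0365). In air lungs, 6 of 7 members differed, 1 higher and 5 lower, where 22.5% of genes were higher at 6 months and 19% lower. Csf1 was higher at 6 months (log2 1.55, adjusted p = 4.43e-07). Csf3r (log2 -1.92, adjusted p = 0.000133), Csf1r (-0.59, 0.000500), Il34 (-0.37, 0.0136), Csf2 (-1.02, 0.0357) and Csf2rb (-0.60, 0.0391) were lower, and Csf2ra did not pass (-0.53, 0.0585). Without 19-24 the air calls of Csf2, Il34 and Csf2rb were lost (adjusted p = 0.123, 0.179 and 0.325). The Csf2 call was also lost without 20-25, 02-07, 04-08 or 06 (0.161, 0.0727, 0.0630 and 0.0804), the Csf2rb call without 02-07 or 06 (0.0810 and 0.0847), and Csf2ra passed without 20-25 (0.0298) or the silica libraries 30-31 or 33 of the same fit (0.0306 and 0.0179).

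The mean levels across the 4 lung groups follow from this. Csf1 averaged 122 ± 12.2 CPM in silica lungs and 87.9 ± 9.76 CPM in air lungs at 1 day (SD, n = 6 and 4), and 143 ± 10.3 CPM in silica lungs and 257 ± 27.7 CPM in air lungs at 6 months (n = 5 and 2). Its order was therefore air at 6 months, silica at 6 months, silica at 1 day and air at 1 day, and the 2 silica groups did not pass the test between them (adjusted p = 0.0968, or 0.0401 with each library as a separate sample). Csf3r averaged 62.0 ± 15.0 CPM in silica lungs and 36.2 ± 6.93 CPM in air lungs at 1 day, and 60.7 ± 14.8 CPM in silica lungs and 9.60 ± 2.50 CPM in air lungs at 6 months. The 2 silica groups of Csf3r overlapped and did not pass (adjusted p = 0.905), and the air lungs of 6 months were the lowest.

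Markers of NK cells and large granular lymphocytes were set beside Csf1. In silica against air at 6 months, 13 of 15 tested fell and none rose, and at 1 day none of 14 passed. In each lung group (only 2 libraries in air at 6 months), the library with the highest NK marker sum also had the highest Csf1. At 1 day these were silica library 10 (869 CPM of markers, 137 CPM of Csf1) and air library 04-08 (861 and 102 CPM), and at 6 months silica library 30-31 (1201 and 157 CPM) and air library 19-24 (3907 and 277 CPM). The library with the lowest NK sum did not always have the lowest Csf1. In silica lungs of 1 day, library 11 had 116 CPM of Csf1, where the lowest was 109.9 CPM. In air lungs of 1 day, library 05 had 82.7 CPM, where the lowest was 79.7 CPM. In silica lungs of 6 months, library 34 had 145 CPM, where the lowest was 128 CPM. Of the 2 air lungs of 6 months, 20-25 was the lower in both. At 1 day the NK marker sums overlapped between silica and air lungs, and Csf1 was higher in every silica lung than in every air lung. T cell markers also differed, with sums of 235 to 469 CPM in silica lungs and 763 and 926 CPM in air lungs at 6 months, although of 8 tested 5 rose and 2 fell. B cell markers summed to 31.2 to 41.5 CPM in silica lungs and 12.4 and 29.5 CPM in air lungs, with Cd79a at 0 in the air lungs. In blood the libraries with the highest NK sum had the highest Csf1 at 6 months (silica library 36 and air library 25), but not at 1 day, where silica library 16 had the fifth highest Csf1 (33.6 CPM) and air library 09 the lowest (27.7 CPM). The receptors in lung were set beside marker sums in the same way. Places from the highest follow for silica and air at 1 day, then silica and air at 6 months. In the library with the highest macrophage sum, Csf1r stood at 4, 4, 1 and 1, Csf2ra at 3, 4, 4 and 1. Csf2rb stood there at 6, 3, 2 and 1. In that with the highest neutrophil sum, Csf3r stood at 1, 1, 3 and 1 and Csf2rb at 1, 2, 3 and 1. The part of these cells in the levels of Csf1 and of the receptors was not tested.

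**Figure D3:**
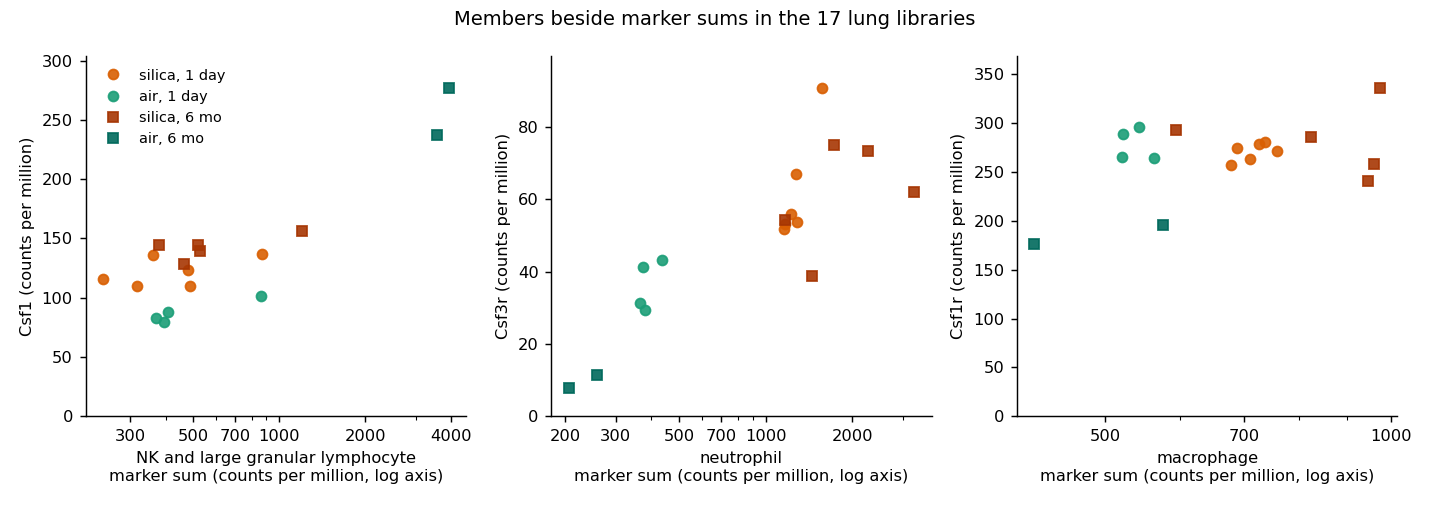
Csf1, Csf3r and Csf1r (CPM, vertical axes from 0) against the summed CPM of NK and large granular lymphocyte, neutrophil and macrophage markers (log axes), 1 point per lung library. The 2 air lungs of 6 months sit apart at 3550 and 3907 CPM of NK markers with the highest Csf1, and at the low end of the neutrophil markers with the lowest Csf3r.

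The balance within a library was followed with 2 ratios that do not depend on library scaling, those of the Csf1r ligands (Csf1 to Il34) and of the Csf2 receptor chains (Csf2rb to Csf2ra), with 6 tests in all. The receptor chain ratio was higher in silica lungs at 1 day, with a mean log2 ratio of -0.52 ± 0.17 in silica lungs and -1.13 ± 0.19 in air lungs (SD, n = 6 and 4). The groups did not overlap (difference 0.61; exact permutation test, two-sided, p = 0.00476, the smallest this design allows; adjusted p = 0.0286). Without any one of the air libraries 02-07, 05 and 06 this call was lost (adjusted p = 0.0714 each), and it stood without 04-08 (adjusted p = 0.0357). At 6 months the difference was 0.48 and the groups overlapped (exact p = 0.333, adjusted p = 0.5, where the smallest possible p is 0.0476). In blood the difference was -0.02 at 1 day and 0.02 at 6 months (exact p = 0.883 and 0.790).

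The ligand ratio averaged 2.27 ± 0.21 in silica lungs and 1.76 ± 0.32 in air lungs at 1 day on the log2 scale (difference 0.52, exact permutation p = 0.0238, adjusted p = 0.0714). At 6 months it averaged 2.57 ± 0.18 in silica lungs and 3.66 ± 0.27 in air lungs (difference -1.09, exact permutation p = 0.0476, the smallest possible, adjusted p = 0.0952). Neither passed after adjustment. The ratio of 1 day passed without air library 04-08 (difference 0.65, adjusted p = 0.0357), and with each library as a separate sample both passed (adjusted p = 0.0433 and 0.0143). At 6 months all silica lungs lay below both air lungs.

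**Figure D4:**
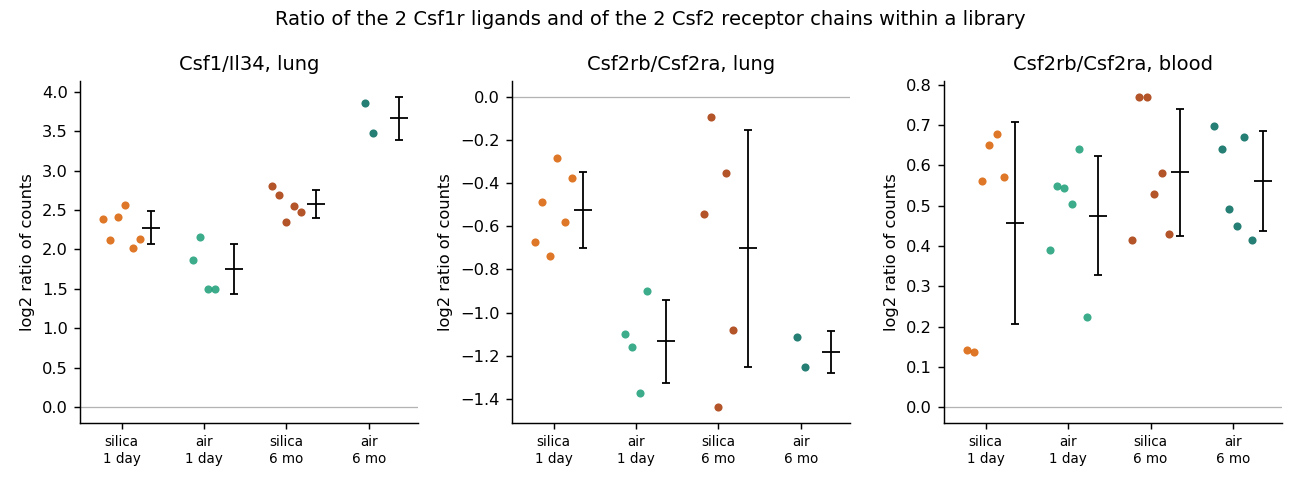
Log2 ratio of counts within each library, for Csf1 over Il34 in lung and Csf2rb over Csf2ra in lung and blood, with mean ± SD per group. In lung at 1 day, the receptor chain ratio averages -0.52 in silica lungs and -1.13 in air lungs without overlap, and in blood the groups overlap.

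Genes around the receptors were read from lists of known pathway members. The shares over all genes, to set beside each list, were 7.61% higher and 4.07% lower at 1 day. At 6 months they were 9.51% higher and 10.1% lower. At 1 day, 8 of 20 signal transducers of these receptors rose in silica lungs and none fell (list median log2 0.17, against 0.00 over all genes). Stat3, which Csf3r signals through, rose by 0.19 on the log2 scale (adjusted p = 0.0107, edgeR), and Shc1, an adaptor of receptor tyrosine kinases, rose by 0.21 (adjusted p = 0.0113). Both calls were lost with all 4 lung groups in a single fit (adjusted p = 0.343 and 0.190). At 6 months, 1 of the 20 rose and 8 fell (median -0.50, against 0.00). Syk, a kinase downstream of ITAM adaptors, differed by -1.75 (adjusted p = 0.00539), at 117 ± 26.6 CPM in silica lungs and 401 ± 88.3 CPM in air lungs. Ptpn6, the phosphatase SHP-1 of all blood cells, differed by -1.001 (adjusted p = 0.00643). The air lungs of 6 months also had the high NK marker sums given above, and the part of those cells in these values was not tested.

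Of 13 genes that STAT5 or STAT3 induces, 4 rose at 1 day and 4 at 6 months, and none fell at either time (medians 0.28 and 0.23). Il1rn, the interleukin-1 receptor antagonist, averaged 57.3 ± 6.87 CPM in silica lungs and 32.9 ± 1.02 CPM in air lungs at 1 day (log2 0.81, adjusted p = 2.07e-05, edgeR), and 105 ± 20.3 and 23.6 ± 0.229 CPM at 6 months (log2 2.193, adjusted p = 0.00481). Pim1, a kinase induced by STAT5, rose at 1 day by 0.76 (adjusted p = 0.000394), and Socs3, the feedback inhibitor of Csf3r, rose at 6 months by 0.89 (adjusted p = 0.00838).

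Of the genes that alveolar macrophages need GM-CSF to express, 5 of 13 tested rose and 2 fell at 1 day (median -0.05). At 6 months, 7 of 14 rose and 1 fell (median 0.89). These are whole-lung levels, and the part of each cell type in them was not tested. Atp6v0d2, a subunit of the vacuolar proton pump, averaged 17.9 ± 0.609 CPM in silica lungs and 5.501 ± 1.14 CPM in air lungs at 1 day (log2 1.72, adjusted p = 7.07e-07, edgeR), while Krt79 fell by 0.59 (adjusted p = 0.00286), a call lost with all 4 lung groups in a single fit (adjusted p = 0.343). At 6 months Plin2, a coat protein of lipid droplets, rose by 0.98 (adjusted p = 0.0129). Itgax (CD11c) differed by -2.09 (adjusted p = 0.00882), at 111 ± 47.4 CPM in silica lungs and 486 ± 124 CPM in air lungs. NK cells of mice also carry it, and its estimated count was not whole in 95.7% of the samples, so reads were split between similar transcripts.

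Of 11 tested inducers of colony-stimulating factors, 4 rose and 1 fell at 1 day, and 4 rose and none fell at 6 months (medians 0.21 and 0.38). Il1b, the interleukin-1 beta gene, averaged 42.4 ± 7.04 CPM in silica lungs and 24.7 ± 3.36 CPM in air lungs at 1 day (log2 0.79, adjusted p = 0.00279, edgeR), and 51.0 ± 10.4 and 9.73 ± 0.916 CPM at 6 months (log2 2.42, adjusted p = 0.00409). Nfkbiz, an NF-kB cofactor, rose by 0.70 and 0.98 (adjusted p = 0.00155 and 0.00481), and Il33, an epithelial alarmin, fell by 0.30 at 1 day (adjusted p = 0.00811, against 0.0644 with all 4 lung groups in a single fit). Of 17 myeloid transcription factors, 5 rose at 1 day and none fell, and at 6 months 9 rose and 2 fell (medians 0.28 and 0.60). Irf4 rose by 0.83 at 1 day (adjusted p = 0.000587). Spi1, which encodes PU.1, rose by 1.36 at 6 months (adjusted p = 0.0105), and Gfi1 differed by -2.68 (adjusted p = 0.00713).

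Among other receptors and the shedding enzyme of these ligands, none of 4 genes passed at 1 day, and Sdc1, Adam17 and Trem2 rose at 6 months (log2 0.95, 0.55 and 1.36; adjusted p = 0.0154, 0.0346 and 0.0452, edgeR). Adam17 encodes a protease that sheds Csf1 and Csf1r, syndecan-1 (Sdc1) binds IL-34 in human cells, and Trem2 is a lipid receptor of macrophages. Of the other genes of the shared beta chain family, Il3ra alone could be tested in lung and did not pass at either time (log2 -0.12 and 0.67; adjusted p = 0.425 and 0.123), although at 6 months it passed with all 4 lung groups in a single fit (0.0162) and with each library as a separate sample (0.0292). Of the genes named here at 6 months, all that passed, including Il1rn and Il1b, lost their call without air library 19-24.

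In blood no member passed at either time. Of the 8, 5 could be tested, and across all genes 0% rose and 0% fell at 1 day (of 11876) and 0% rose and 0% fell at 6 months (of 11615). At an unadjusted p under 0.05, edgeR gave 294 genes higher and 136 lower at 1 day, and 295 higher and 425 lower at 6 months. DESeq2 called 0 genes at 1 day and 7 at 6 months, none of them a member. No gene of the pathway lists passed in blood either.

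Csf3 had 0 counts in all 24 blood libraries, which allows up to 0.110 to 0.442 CPM a library. Csf2 had at most 2 counts in any blood library. Il34 had at most 4 counts in 23 blood libraries and 36 counts (1.32 CPM) in the air library 25 of 6 months. These ligands were thus at or near the limit of 3 counts in blood, and were not tested.

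The receptors were well covered in blood. At 1 day, Csf3r read 362 (lowest), 444 (median) and 676 CPM (highest) in silica blood, and 289, 371 and 515 CPM in air blood. The groups overlapped (log2 0.33, 95% interval -0.07 to 0.72; adjusted p over 0.999, as for the other 4). Csf2ra read 41.0, 48.1 and 101.9 CPM in silica blood and 35.5, 40.2 and 50.2 CPM in air blood (log2 0.50, 95% interval 0.04 to 0.96). Csf2rb read 64.8, 69.2 and 112 CPM in silica blood and 48.3, 51.9 and 78.3 CPM in air blood (log2 0.43, 95% interval 0.06 to 0.80). The highest value of all 3 genes was in silica library 11, and without it the log2 differences were 0.20, 0.25 and 0.28. That library had the lowest neutrophil marker sum of the group, at 1262 CPM. It also had the highest macrophage marker sum, at 95.9 CPM, and the highest Csf1r, at 288 CPM. The part of these cells was not tested. Csf1 and Csf1r overlapped too, with log2 differences of 0.23 and 0.08.

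At 6 months the 5 genes again overlapped between silica and air blood. Csf3r read 343 (lowest), 479 (median) and 570.5 CPM (highest) in silica blood, and 112, 415 and 507 CPM in air blood (log2 0.30, 95% interval -0.34 to 0.94; adjusted p = 0.698, edgeR). The lowest air value was library 25. That library also had the lowest Csf1r (119.9 CPM), Csf2ra (16.5 CPM) and Csf2rb (26.2 CPM) of its group, and the highest Csf1 (117 CPM, against 37.8 to 53.4 CPM in the other 5 air libraries). Its NK marker sum was 2445 CPM, where the silica blood of 6 months had 237 to 801 CPM. Csf1 read 28.0, 45.9 and 60.0 CPM in silica blood and 37.8, 50.3 and 117 CPM in air blood (log2 -0.39; adjusted p = 0.658). Without library 25 its log2 difference was -0.11, and those of Csf2ra, Csf2rb and Csf3r were 0.03, 0.07 and 0.09. Neutrophil markers summed to 3658 to 6598 CPM in silica blood and 1689 to 4161 CPM in air blood. The part of these cells was not tested.

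**Figure D5:**
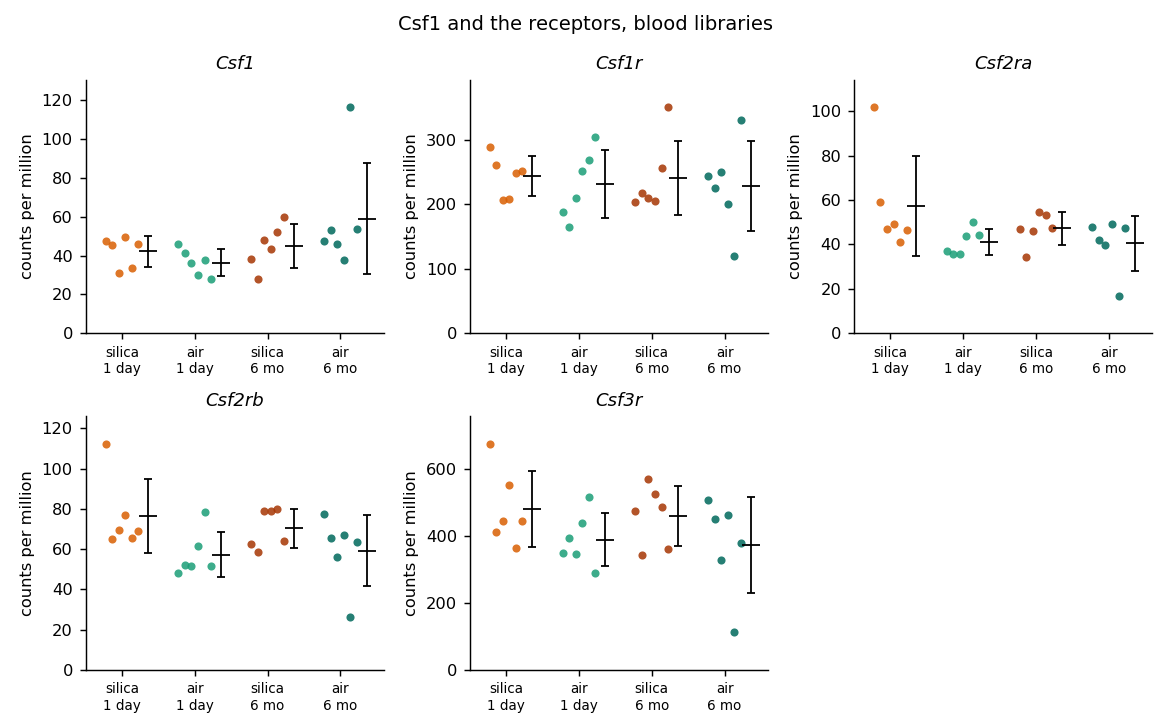
CPM (linear axes from 0) of Csf1 and the receptors in the 24 blood libraries, 1 point per library, with mean ± SD per group. Silica and air overlap for each gene at both times, and single libraries stand off, such as the air library of 6 months with 117 CPM of Csf1 and 112 CPM of Csf3r.

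The difference in silica's effect between the times did not pass for any member in blood, where 0% of 12264 genes changed upwards and 0% downwards (138 and 197 at an unadjusted p under 0.05, edgeR). Lung was then set against blood in a single fit per time. At 1 day no member's effect passed, with 0.173% of 16148 genes having a larger effect in lung and 0.0186% a smaller one. At 6 months, 2 of 7 members had a larger effect in lung, where 0.559% of 16447 genes were larger and 0.614% smaller and the median over all genes was 0.14. The lung effect minus the blood effect was 2.52 for Csf3r (adjusted p = 0.0215, edgeR) and 1.73 for Csf2rb (adjusted p = 0.0314). Both calls were lost without either air lung of 6 months (adjusted p = 0.391 and 0.457 without 19-24, 0.0927 and 0.113 without 20-25), and that of Csf2rb also without any one of the silica lungs 32 and 34 (0.0593 and 0.0644), the silica blood 30 (0.0531) or the air blood 20, 21, 23 and 27 (0.0501 to 0.0560). Csf2ra passed too without the blood air library 25 (1.52, adjusted p = 0.00346) and with each library as a separate sample (1.19, adjusted p = 0.0458). Csf2ra (1.28), Csf1r (0.71) and Csf1 (-0.29) did not pass (adjusted p = 0.145, 0.408 and 0.838). Values for Csf2 and Il34 rest on blood counts at the limit of detection, and no difference is read from them.

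The genes whose log2 levels ran most like a member's were listed by Pearson's r, over 17 lung libraries of 4 groups (14982 genes) or 24 blood libraries (11266 genes), so that group differences and single libraries are part of each r. In lung, Csf3r ran closest to Cxcr2, the neutrophil chemokine receptor (r = 0.99), Ifit1lb and Nlrp12 (0.98 and 0.97), and in blood to Nlrp12 (0.99), Slc6a6 and Bcr. In lung, Csf1 ran closest to Fgd3, Actr3 and Rab27a (0.98, 0.98 and 0.97). Csf2ra ran closest to Dok3, Cd74 and Aif1 in lung (0.98 each) and to Rara, Grn and Spi1 in blood (0.97, 0.96 and 0.96). Csf2rb ran closest to Itgb8 in lung (0.97) and to MGC112715 in blood (0.96). Csf1r ran closest to Dnajb4 in lung (0.93) and to Cd68, a macrophage marker, in blood (0.94). Il34 and Csf2, the members with the weakest matches in lung, reached 0.89 with Nme4 and 0.87 with Fmod.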

How the data were processed

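The deposited values are estimated counts per gene, 1 table per tissue and time. Per the labels' protocols, libraries were stranded and made from polyadenylated RNA, with globin mRNA removed from blood. The submitters' processing notes name bcl2fastq 2.19, Trim Galore 0.6.7, cutadapt 3.4, STAR 2.6.1d, Salmon 1.10.1 and the Rnor_6.0 build. Which annotation release was used is not stated in these sources. Counts were rounded to whole numbers. Rows were matched between tables by gene identifier, and members and list genes were found by gene name. A pair of samples of a group was averaged and counted once where under 10% of genes differed (chi-square, unadjusted p under 0.05), over genes with whole counts and a mean of at least 20.

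Silica was compared with air in each tissue and time with edgeR 4.0.16 (R 4.3.3, limma 3.58.1): filterByExpr (minimum count 10, minimum total 15), TMM factors and a quasi-likelihood F test, with Benjamini-Hochberg adjustment over all genes tested and a threshold of 0.05. CPM use the TMM-scaled library size. Differences of effects were contrasts in fits of 4 groups. Log2 ratios used a pseudocount of 0.5 and exact permutation tests. Intervals are 95%. DESeq2 1.42.0, RLE factors, no filter on low counts, all groups of a tissue in a single fit, unaveraged pairs, an animal-number block and each library left out were alternatives. The fits were tested on simulated data with known changes. Of each pathway list, at most the 3 genes with the smallest adjusted p among those past the threshold were named, or 1 where none passed, except 1 gene that is not reported here. The members and lists were chosen with earlier results of these data known. Gene lengths were not used, so levels are not compared between genes. The CPM of lung and blood were scaled separately, while the fits of lung against blood scaled the libraries of both tissues together.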

Additional observations from a re-analysis of the deposited data

Results flagged for a closer look

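Single libraries stood off from their group for 8 of the 44 sets of a member and a group that were examined with Dixon's criterion, which chance meets in about 1 set in 20. The blood air library 25 of 6 months gave 3 of them. It had 117 CPM of Csf1 (next highest 53.4 CPM), 1.32 CPM of Il34 (next highest 0.161 CPM) and 16.5 CPM of Csf2ra (next lowest 39.9 CPM). The blood silica library 11 of 1 day had 102 CPM of Csf2ra (next highest 58.9 CPM) and 112 CPM of Csf2rb (next highest 77.2 CPM). Csf1r was at 351 CPM in the blood silica library 36 of 6 months (next highest 256 CPM). Csf2 was at 0.590 CPM in the lung air library 05 of 1 day (next lowest 1.4004 CPM). Il34 was at 0.249 CPM, from 4 counts, in the blood air library 05 of 1 day (next highest 0.0756 CPM).

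The effect of silica differed between 6 months and 1 day in lung, in a test of the difference itself, for Csf1 (-1.33 on the log2 scale), Csf1r (0.64), Csf2ra (0.95), Csf2rb (0.84) and Csf3r (1.88). It was larger in lung than in blood at 6 months for Csf2rb (1.73) and Csf3r (2.52). Both rest on the 2 averaged air lungs of 6 months, whose NK and large granular lymphocyte marker sums were 3550 and 3907 CPM. The part of those cells was not tested.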

How the results depend on the processing

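RLE factors and no filter on low counts moved no count of genes past 1.5 times. No filter left the lung Csf3r call of 1 day just short (adjusted p = 0.0537, edgeR). It did the same to the Csf2rb call between 6 months and 1 day in air lungs (log2 -0.59, adjusted p = 0.0522, edgeR). With all 4 lung groups in a single fit, 594 genes passed at 1 day and 6499 at 6 months. Csf2 then passed at 6 months (log2 1.104, adjusted p = 0.0216), and at 1 day Csf2ra (adjusted p = 0.261), Stat3, Shc1, Krt79, Il33 and Bcl2a1 did not. With each library as a separate sample, 6396 genes and 7 members, Csf2 and Il34 among them, passed in lung at 6 months, 50 and 797 in lung against blood at 1 day and 6 months, and 2 members between 6 months and 1 day in silica lungs, and the ligand ratio passed at 1 day (0.44, adjusted p = 0.0433) and 6 months (-1.05, adjusted p = 0.0143). DESeq2 called 7 genes in blood at 6 months.

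Lung and blood samples share animal numbers. A check of their pairing kept near-identical lung samples of different numbers apart, so it can neither show nor exclude pairing. Of 17 same-numbered pairs, 2 had deviations correlated above 0.1 (r from -0.10 to 0.29) and 1 correlated best with its own number. With that number as a replicate block and each library as a separate sample, 2 choices changed together, lung against blood gave 4 genes at 1 day and 4 at 6 months, with 0 members, and the sign turned for Il34 at 1 day (0.25) and Csf1 at 6 months (0.053).

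Leaving out 1 library at a time gave 1188 to 2240 genes in lung at 1 day, and 56 to 4171 genes and 0 to 6 members at 6 months. Blood at 6 months gave 0 to 2 genes. The change of effect over time in lung gave 1642 to 5570 genes and 3 to 5 members. Lung against blood gave 15 to 123 genes at 1 day, and 3 to 1257 genes and 0 to 3 members at 6 months. Between 6 months and 1 day there were 766 to 2998 genes and 1 to 2 members in silica lungs, and 3643 to 8454 genes and 3 to 7 members in air lungs. The ligand ratio of 1 day ranged from 0.43 to 0.65 and passed without air library 04-08, and the receptor chain ratio from 0.53 to 0.69 in lung, from -0.068 to 0.046 in blood at 1 day and from -0.016 to 0.055 in blood at 6 months. Signs that turned were those of differences near 0 or of few counts: Il34 in lung at 1 day (-0.11 to 0.0087), Csf1r in blood at 6 months (-0.090 to 0.21), the change over time of Csf2 in lung (-0.12 to 0.26), of Csf1r (-0.15 to 0.12) and Csf3r (-0.21 to 0.11) in blood, lung against blood at 1 day for Il34 (-1.27 to 0.55) and Csf2ra (-0.21 to 0.10), and Csf3r over time in silica lungs (-0.11 to 0.11). The cause was not tested, beyond there being fewer samples. The 2 air lungs of 6 months limit every comparison that uses them, and the low counts of Csf2 limit its precision.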
